A study of Mus musculus with 33 samples.

Results

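Genes of the basement membrane and of parietal endoderm were followed through the differentiation of mouse embryonic stem cells. They were chosen by name, as 10 of the 37991 Ensembl genes counted in every library, and none was chosen by a value. The set holds the laminin chains Lama1 and Lamc1, the type IV collagen chains Col4a1 and Col4a2, the nidogens Nid1 and Nid2, the perlecan gene Hspg2, the secreted glycoprotein gene Sparc, and the receptor genes Thbd (thrombomodulin) and Pth1r (parathyroid hormone receptor).

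The 33 libraries were made from mouse embryonic stem cells of the line E14TG2a after editing with CRISPR/Cas9. Each line was sampled undifferentiated (mESCs) and as embryoid bodies harvested on day 8, either untreated (EBs) or given 5 µM retinoic acid after day 4 (EBs + RA). Control cells carried the empty vector and were represented by clones #1, #4 and #7, Neil1-mutant cells by clones #7, #9 and #11, and Neil2-mutant cells by clones #1, #11 and #14, with 1 library per clone and stage. Apex1-mutant cells were a single clone, #46, sequenced as technical duplicates, so that tests on these libraries carry no spread between clones. Neil1 and Neil2 encode DNA glycosylases and Apex1 the apurinic endonuclease, all enzymes of base excision repair.

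Values are given as CPM (counts per 1000000 counts on genes, with library sizes scaled by TMM over all libraries), in the clone order above. Libraries held 21523742 to 48350904 counts on genes, with a median of 26720028. The counts of the targeted genes did not check the labels. Neil1 was at 31.5, 2.48 and 7.37 CPM in the Neil1 mESCs against 7.62 to 9.85 CPM in Control. Neil2 was at 5.50, 9.54 and 6.40 CPM in the Neil2 mESCs against 5.74 to 15.2 CPM in Control. Apex1 went against its label: it was at 56.5 to 86.2 CPM in the libraries labelled Apex1 and at 7.76 to 17.8 CPM in the Control libraries over the 3 stages. The deletions target single exons and counts were summed over whole genes, so the genotypes below are those of the labels. The mESC library of Neil1 clone #11 held counts for 287 X-linked genes against 807 to 926 in the other libraries. The EB and EB + RA libraries of the same clone held 883 and 834. No member lies on the X chromosome. The mESC library enters all Neil1 comparisons that use mESCs, and the reason for its low number was not tested.

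The basement membrane is a thin sheet of extracellular matrix under epithelia. Laminin trimers, such as the one made of the Lama1, Lamb1 and Lamc1 chains, form one network, and type IV collagen, in embryos the trimer of Col4a1 and Col4a2 chains, forms the other. Nidogens and perlecan link both. Parietal endoderm, an extraembryonic cell type of the early mouse embryo, secretes these proteins in large amounts into Reichert's membrane, and Sparc, Thbd and Pth1r are also used as its markers. Retinoic acid has long been used to drive embryonal carcinoma cells into extraembryonic endoderm.

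Col4a1 and Col4a2 lie head to head on chromosome 8 of NCBIM37, Col4a1 at chr8:11198423-11312826 on the minus strand and Col4a2 at chr8:11312805-11449287 on the plus strand. Their first exons overlap by 22 bases, the stretch from which the genes are transcribed in opposite directions, shown because reads from it could fall to either gene.
Col4a1 and Col4a2 starts, chr8:11312805-11312826, plus strand: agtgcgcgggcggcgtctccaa

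RefSeq promoter entries (build GRCm38.p6) were matched for 6 of the 10 members, in 8 entries. The entries beyond 1 per gene were all of Pth1r, so the counts below are of entries and not of genes. Searched on both strands over the 250 bases before each start, the GC box GGGCGG was in 5 of the 8 entries and in 32.7% of all 32851 promoters, and the CCAAT box CCAAT in 4 of 8 and in 33.8% of all. The retinoic acid receptor half-site AGGTCA was in 0 of 8 and in 14.0% of all, GATAA, the core read by GATA factors, in 1 of 8 and in 22.6%, ACAAT, a core read by SOX factors, in 0 of 8 and in 27.7%, and TATAAA in 0 of 8 and in 12.4%. Windows of 3 members are shown 5′ to 3′ on the gene's strand, for a gene that rose at both steps of differentiation (Sparc), a gene that fell at the first (Nid1) and a gene that stayed within the fold limit in Control (Hspg2). Capitals mark GC and CCAAT boxes on either strand, of which the Sparc window holds none.
Hspg2, chr4:137468553-137468802, plus strand: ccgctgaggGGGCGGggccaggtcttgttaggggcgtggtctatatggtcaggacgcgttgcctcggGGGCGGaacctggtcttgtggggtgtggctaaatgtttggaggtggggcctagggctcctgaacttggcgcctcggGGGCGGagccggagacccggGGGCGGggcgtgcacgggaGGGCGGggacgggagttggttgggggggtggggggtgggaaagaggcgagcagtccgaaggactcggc
Nid1, chr13:13437352-13437601, plus strand: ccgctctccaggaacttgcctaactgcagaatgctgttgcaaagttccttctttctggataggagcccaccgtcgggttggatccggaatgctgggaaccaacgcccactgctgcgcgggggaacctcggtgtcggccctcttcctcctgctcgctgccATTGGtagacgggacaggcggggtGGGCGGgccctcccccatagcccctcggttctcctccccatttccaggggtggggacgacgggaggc
Sparc, chr11:55420081-55420330, minus strand: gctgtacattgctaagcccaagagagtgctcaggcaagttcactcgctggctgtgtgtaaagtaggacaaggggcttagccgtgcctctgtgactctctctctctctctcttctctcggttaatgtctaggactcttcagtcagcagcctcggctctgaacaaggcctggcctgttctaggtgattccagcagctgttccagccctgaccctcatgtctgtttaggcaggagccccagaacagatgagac

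The first question was how the members change as Control cells differentiate. From mESCs to EBs, type IV collagen and the parietal endoderm markers rose and Nid1 fell. A gene was called changed by edgeR's quasi-likelihood test at an FDR (Benjamini-Hochberg, over all genes tested) below 0.1 and a log2 fold change of more than 0.5 in either direction. Of the 10 members, 5 were called higher and 1 lower, where 38.7% of the 15799 genes tested were called, 18.5% higher and 20.2% lower. The median log2 fold change was 0.87 over the members and −0.02 over all genes tested. In bulk samples, a change in the share of cells of a type and a change in RNA per cell cannot be told apart.

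Col4a1, an alpha chain of the collagen IV trimer, was at 97.5, 118 and 134 CPM in Control mESCs and at 480, 426 and 510 CPM in EBs, a log2 fold change of 2.00 (SE 0.15, FDR 1.99e-05). Its partner Col4a2 went from 38.6, 47.6 and 44.4 CPM to 252, 222 and 280 CPM (log2 fold change 2.51, SE 0.14, FDR 4.05e-06). Sparc, a collagen-binding matrix glycoprotein, went from 233, 243 and 256 CPM to 596, 628 and 720 CPM (log2 fold change 1.39, SE 0.12, FDR 4.04e-05). In all of these genes every EB library lay above every mESC library. Pth1r, the receptor for parathyroid hormone and its related peptide, rose from 1.68, 2.61 and 2.16 CPM to 38.3, 34.1 and 38.2 CPM, the largest change among the members at 16.9-fold (log2 4.08, SE 0.19, FDR 2.05e-06). Thbd, a cell-surface cofactor of thrombin, stayed low, at 0.256, 0.454 and 0.118 CPM and then 0.988, 1.56 and 1.14 CPM (log2 fold change 2.10, SE 0.46, FDR 0.00622).

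Nid1, which bridges laminin and collagen IV, fell from 202, 209 and 285 CPM to 99.3, 116 and 86.5 CPM (log2 fold change −1.23, SE 0.17, FDR 0.000596). Its paralogue Nid2 was at 507, 416 and 484 CPM in mESCs and 368, 342 and 352 CPM in EBs, and Hspg2, the heparan sulfate proteoglycan perlecan, at 526, 439 and 466 CPM and then 326, 400 and 336 CPM. Both passed the FDR limit, at 0.0184 and 0.0205, with log2 fold changes of −0.43 and −0.45 that stayed within the fold limit. The laminin chains did not pass both limits: Lama1, the alpha chain of the early embryonic laminin, was at 89.1, 104 and 118 CPM and then 117, 109 and 177 CPM, and Lamc1, the gamma chain shared by most laminins, at 353, 358 and 559 CPM and then 321, 316 and 327 CPM. All 13 visceral endoderm markers and 14 of 16 parietal endoderm markers outside the members were called higher in the same comparison, led by the keratin genes Krt8 (log2 fold change 5.08) and Krt18 (4.62), and 0 of either list was called lower. The part of either endoderm type in the members' values was not tested.

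Per kilobase of exon, Sparc was the most abundant member in Control EBs (192 ± 19.1 CPM per kb, SD, n = 3), followed by Nid2 (72.5 ± 2.64) and Col4a1 (69.3 ± 6.29), which overlapped each other, and Thbd was the least abundant (0.330 ± 0.0792). In Control mESCs the order was led by Nid2 (96.1 ± 9.65 CPM per kb), Sparc (72.5 ± 3.39) and Lamc1 (51.2 ± 14.2), each above the range of the next except that Lamc1 overlapped Nid1 (38.4 ± 7.64). In Control EBs + RA, Sparc (390 ± 206 CPM per kb), Col4a1 (130 ± 85.8) and Col4a2 (74.3 ± 47.8) came first, and each of these overlapped the next.

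**Figure D1:**
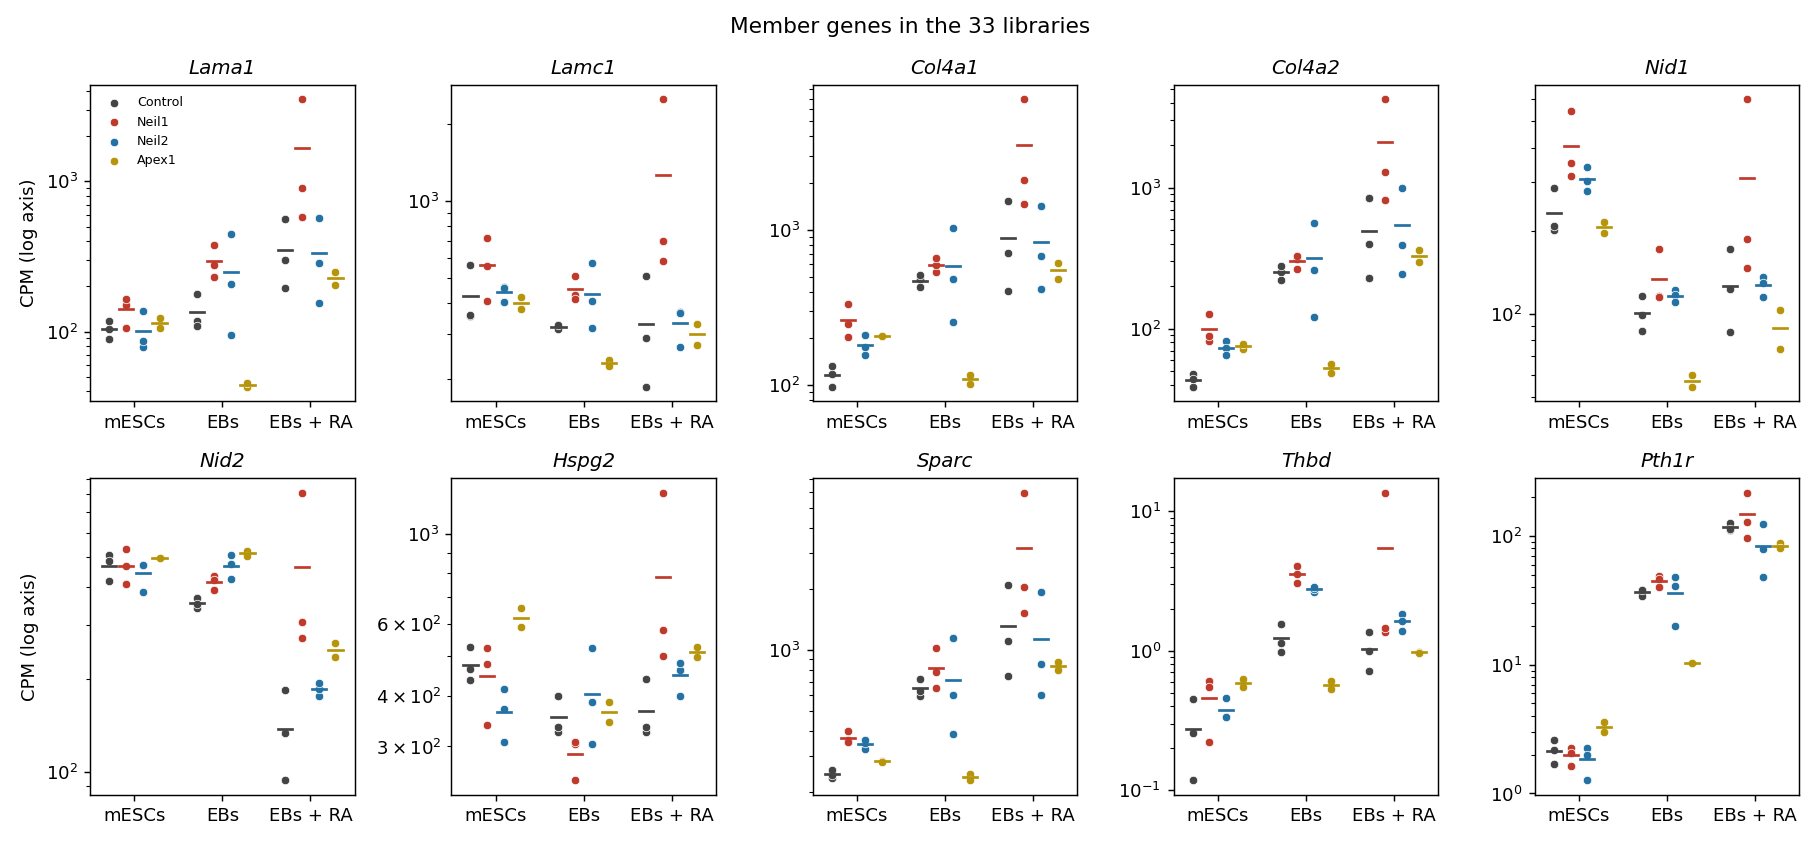
Each panel shows 1 member gene, with CPM on a log axis against stage; every point is 1 library, colours give the genotype and short bars the group means of 3 clones (2 technical duplicates for Apex1). Pth1r climbs at both steps, and the highest point of every panel in EBs + RA is a Neil1 library.

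The second question was the response to RA, tested within each genotype. The main tests did not pair the EB and EB + RA libraries of a clone. Further tests took the clone as a replicate block, or, for Apex1, the number of the technical duplicate. In Control, 3 members were called higher in EBs + RA than in EBs and 1 lower, where 44.1% of 15919 genes were called, 23.3% higher and 20.7% lower. The RA-induced genes Cyp26a1, Rarb and Dhrs3 were called higher in each genotype.

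Lama1 rose in Control from 117, 109 and 177 CPM to 297, 196 and 562 CPM (log2 fold change 1.38, SE 0.38, FDR 0.0193). Sparc rose from 596, 628 and 720 CPM to 1107, 748 and 2087 CPM (log2 fold change 1.01, SE 0.34, FDR 0.0374). Pth1r rose from 38.3, 34.1 and 38.2 CPM to 126, 111 and 114 CPM (log2 fold change 1.65, SE 0.10, FDR 5.48e-06), with the smallest spread between clones. Nid2 fell from 368, 342 and 352 CPM to 134, 93.8 and 184 CPM (log2 fold change −1.38, SE 0.22, FDR 0.00108). Nid2 was thus the member with the lower value in RA in every Control clone, while Nid1 was at 123, 85.7 and 171 CPM against 99.3, 116 and 86.5 CPM and was not called.

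Col4a1 and Col4a2 were spread widely in Control EBs + RA, at 713, 403 and 1536 CPM and at 402, 230 and 843 CPM, and their log2 fold changes of 0.90 (FDR 0.13) and 0.96 (FDR 0.103) were not called. Same-numbered EB and EB + RA libraries come from 1 culture divided on day 4, and with the clone as a replicate block both genes were called (Col4a1 0.68, FDR 0.0861; Col4a2 0.76, FDR 0.0487). Without Control clone #4 in EBs + RA they were also called, and without clone #7 in EBs + RA or clone #4 in EBs the call of Sparc was lost.

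In Neil1 EBs + RA, 7 members were called higher than in Neil1 EBs and 0 lower, where 53.4% of 15688 genes were called, 28.2% higher and 25.2% lower. Col4a2 went from 266, 310 and 326 CPM to 813, 1300 and 4228 CPM (log2 fold change 2.79, SE 0.61, FDR 0.00871), and Col4a1 from 539, 590 and 658 CPM to 1460, 2092 and 6916 CPM (2.52, SE 0.58, FDR 0.00998). Lama1 (2.47), Sparc (1.93), Pth1r (1.68), Lamc1 (1.46) and Hspg2 (1.42) also rose. With the clone as a replicate block Nid1 was called too (0.91, FDR 0.023). Nid2 was at 432, 420 and 390 CPM in EBs and 273, 308 and 811 CPM in EBs + RA: clones #7 and #9 were lower with RA and clone #11 was higher. Without the EBs + RA library of clone #11, Nid2 was called lower (log2 fold change −0.54, FDR 0.00209), Thbd was called lower (−1.36, FDR 0.00178), and Lama1 fell from 2.47 to 1.29, Col4a1 from 2.52 to 1.54 and Col4a2 from 2.79 to 1.78, all still called. Sparc (1.09) and Hspg2 (0.88) also kept their calls without it, and Lamc1 did not (0.47, FDR 0.00931). Lamc1 was called in 3 of 6 fits that left out 1 library, and was also lost without clone #7 or #9 in EBs.

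In Neil2 EBs + RA 1 member was called higher and 2 lower, where 42.4% of 15876 genes were called, 21.4% higher and 21.0% lower. Pth1r went from 48.2, 19.9 and 40.6 CPM to 123, 48.0 and 79.1 CPM (log2 fold change 1.18, SE 0.39, FDR 0.0412), Nid2 from 509, 423 and 474 CPM to 176, 185 and 194 CPM (−1.37, SE 0.14, FDR 0.000332), and Thbd from 2.64, 2.76 and 2.88 CPM to 1.39, 1.85 and 1.63 CPM (−0.79, SE 0.28, FDR 0.0516). Col4a1 was at 1020, 254 and 486 CPM in EBs and at 1429, 414 and 675 CPM in EBs + RA, so that the clones differed more from each other than between conditions. Each Neil2 clone was higher with RA in Col4a1, by 0.47 to 0.71 on the log2 scale. With the clone as a replicate block Col4a1 (0.53, FDR 0.00719), Col4a2 (0.78, FDR 0.0019) and Sparc (0.61, FDR 0.00404) were called. This brought the count to 6 of 10 members, where the block called 7498 of 15876 genes. Of the 6 fits that left out 1 library, Nid2 was called in 6, Pth1r in 4 and Thbd in 2. Pth1r was lost without clone #11 in EBs (0.88) or clone #1 in EBs + RA (0.79), and Thbd without either of these or without clone #14 at either condition (−0.79 to −0.69).

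In the libraries labelled Apex1, 6 members were called higher and 1 lower in EBs + RA, where 48.9% of 15915 genes were called, 26.3% higher and 22.6% lower. Pth1r went from 10.3 and 10.3 CPM to 87.6 and 80.1 CPM (log2 fold change 3.02, SE 0.13, FDR 3.05e-10), Col4a2 from 48.6 and 56.5 CPM to 295 and 360 CPM (2.63, SE 0.14, FDR 1.86e-09), and Lama1 from 42.8 and 45.8 CPM to 203 and 251 CPM (2.35, SE 0.13, FDR 3.67e-09). Nid2 fell here as well, from 525 and 504 CPM to 236 and 263 CPM (−1.05, SE 0.13, FDR 8.27e-06). These errors are those of technical duplicates of 1 clone.

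**Figure D2:**
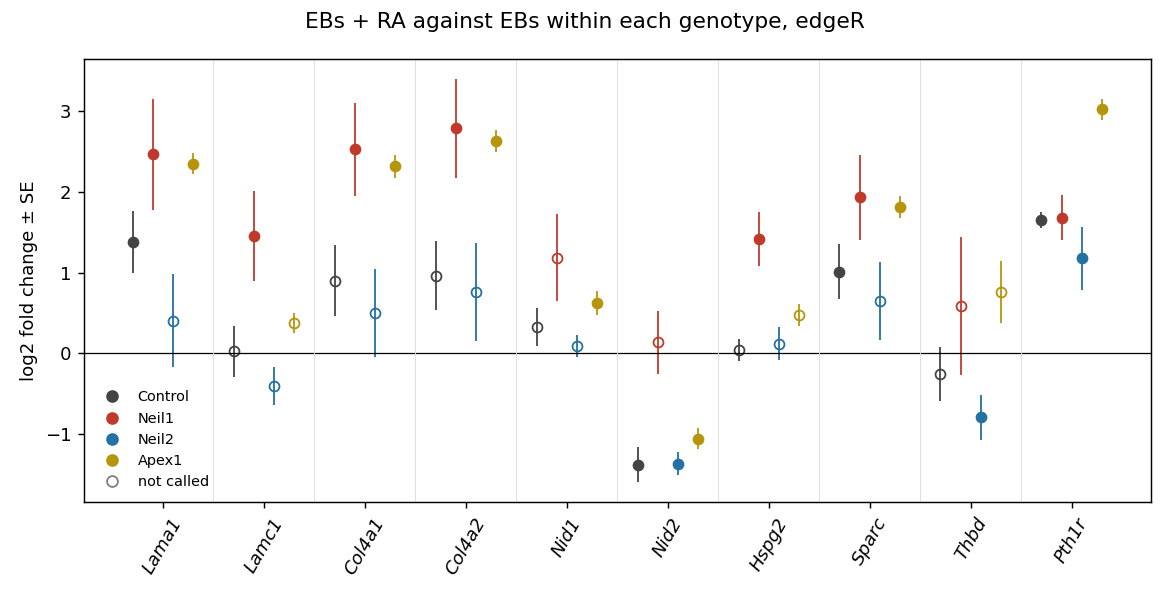
Log2 fold change of EBs + RA over EBs (± SE from edgeR) for each member, with 1 colour per genotype; filled points were called and open points were not. Pth1r is above 1 in all 4 genotypes, and Nid2 is below −1 in Control, Neil2 and Apex1 and near 0 in Neil1.

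Whether the RA response differed from that of Control was tested by an interaction term. For Neil1, 3 members were called, all with a larger response: Col4a2 (log2 difference 1.88, SE 0.77, FDR 0.0989), Nid2 (1.56, SE 0.50, FDR 0.0445) and Hspg2 (1.42, SE 0.40, FDR 0.0259), where 29.6% of 16706 genes were called. Without the EBs + RA library of Neil1 clone #11, Nid2 and Hspg2 were still called, each at 0.88, Col4a2 was at 0.87 (FDR 0.341) and Thbd was called at −1.06. Leaving out Control clone #1 or #4 in EBs + RA left only Hspg2 called. Of 12 fits that left out 1 library, Hspg2 was called in 12, Nid2 in 10 and Col4a2 in 3 (0.87 to 2.51), and Col4a2 was not called by DESeq2 (FDR 0.136). With the clone as a replicate block Lamc1 (1.26, FDR 0.0815) and Col4a1 (1.54, FDR 0.0578) were called as well, where 5734 of 16706 genes were called.

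For Neil2, 0 members were called in edgeR's interaction test, where 15.0% of 16757 genes were, and the log2 differences ran from −0.97 for Lama1 to 0.08 for Hspg2. DESeq2 also called 0, 0 of the 10 had an unadjusted p below 0.05, and with the clone as a replicate block Lama1 was called with a smaller response (−0.79, FDR 0.0235). The block called 3734 of 16757 genes. For Apex1, where 15.7% of 16848 genes were called, Pth1r alone was called, with a larger response (1.38, SE 0.15, FDR 0.000265). It was called in all 10 fits that left out 1 library. For Apex1 the block is the number of the technical duplicate, not a clone. With it, Lama1 (1.09, FDR 0.011), Col4a1 (1.65, FDR 0.0461) and Col4a2 (1.88, FDR 0.0234) were called too, where 3581 of 16848 genes were called. Without Control clone #7 in EBs + RA 9 members were called, and the share of all genes in that fit is not reported here.

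The third question was how the mutants differ from Control at each stage. These comparisons share their Control libraries within a stage, so the genotypes are given side by side.

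Col4a1 in mESCs was at 97.5, 118 and 134 CPM in Control, at 204, 249 and 333 CPM in Neil1, at 212, 157 and 176 CPM in Neil2, and at 207 and 209 CPM in the libraries labelled Apex1. Col4a2 was at 38.6 to 47.6 CPM in Control, 82.5 to 127 CPM in Neil1, 65.1 to 81.9 CPM in Neil2 and 71.9 to 77.9 CPM in Apex1. For both genes every mutant library lay above every Control library.

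In Neil1 mESCs Col4a1 (log2 fold change 1.15, FDR 0.076), Col4a2 (1.18, FDR 0.0734) and Sparc (0.59, FDR 0.0904) were called higher, 3 of 10 members, where 1.82% of 15569 genes were called, 1.03% higher and 0.784% lower. In Neil2 mESCs Col4a2 (0.73, SE 0.13, FDR 0.0618) was the 1 member called of 9 tested, where 1.83% of 15615 genes were called, 1.4% higher and 0.429% lower. Thbd did not pass the filter on low counts, and Col4a1 was at 0.62 (FDR 0.137). In Apex1 mESCs Col4a1 (0.80, FDR 0.0357) and Col4a2 (0.75, FDR 0.0286) were called, 2 of 10, where 16.9% of 16240 genes were, 7.87% higher and 9.07% lower. Most of these calls did not hold throughout. In Neil1 all 3 were lost in 4 of 6 fits that left out 1 library, in 1 further fit, without Neil1 clone #11, Col4a2 alone kept its call, and without Control clone #7 all 3 were called with Nid1. In Neil2 the call of Col4a2 held in 1 of 6 such fits, that without Control clone #7, with log2 fold changes of 0.64 to 0.81 over the 6. In Apex1 both calls held in 2 of 5 such fits and were lost when the duplicates were summed into 1 library (FDR 0.325 and 0.324). Sparc was at 233 to 256 CPM in Control mESCs, 354 to 397 CPM in Neil1, 325 to 362 CPM in Neil2 and 280 to 285 CPM in Apex1, with no overlap with Control.

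In Neil1 EBs 2 members were called higher and 0 lower, where 23.5% of 15479 genes were called, 10.4% higher and 13.1% lower. Lama1 was at 232, 276 and 379 CPM against 117, 109 and 177 CPM in Control (log2 fold change 1.14, SE 0.24, FDR 0.0139). Thbd was at 4.05, 3.05 and 3.58 CPM against 0.988, 1.56 and 1.14 CPM (1.55, SE 0.26, FDR 0.00155). Both calls held in all 6 fits that left out 1 library. Lamc1 (0.49, FDR 0.00249) and Col4a1 (0.34, FDR 0.0268) passed the FDR limit with changes under the fold limit.

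In Neil2 EBs Thbd was the 1 member called, at 2.64, 2.76 and 2.88 CPM (log2 fold change 1.19, SE 0.28, FDR 0.025), where 16.3% of 15575 genes were called, 8.65% higher and 7.69% lower. The call was lost without Control clone #1. Lama1 was at 446, 94.5 and 208 CPM and Col4a2 at 562, 121 and 262 CPM in Neil2 EBs, with clone #1 above all 3 Control clones and clone #11 below. Nid2, at 509, 423 and 474 CPM, was above Control in each Neil2 clone and was not called. Other lists moved in these EBs. The summed level of the 16 parietal endoderm markers outside the members was 1328 to 1942 CPM in Neil1 and 819 to 2078 CPM in Neil2, below the 2421 to 3101 CPM of Control, with 2 higher and 4 lower in Neil1 and 1 higher and 6 lower in Neil2. The 8 mesenchymal markers summed to 23.5 to 26.9 CPM in Neil1 and 30.5 to 45.9 CPM in Neil2 against 222 to 392 CPM in Control, with 7 of 7 tested lower in both. The part of cell composition in the values of Lama1 and Thbd was not tested.

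In the EB libraries labelled Apex1, 7 members were called lower and 1 higher, where 25.8% of 15780 genes were called, 11.9% higher and 13.9% lower. The median log2 fold change was −1.27 over the members and −0.00 over all genes tested. Col4a2 was at 48.6 and 56.5 CPM against 252, 222 and 280 CPM in Control, 4.80-fold lower (log2 −2.26, SE 0.12, FDR 2.14e-06). Col4a1 was at 102 and 116 CPM against 480, 426 and 510 CPM (−2.11, SE 0.11, FDR 2.14e-06). Pth1r was at 10.3 and 10.3 CPM against 34.1 to 38.3 CPM (−1.85, SE 0.13, FDR 8.92e-06). For both collagen genes the Apex1 EBs lay near the level of Control mESCs, and for Pth1r above it.

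Lama1 (log2 fold change −1.61, FDR 0.00288), Sparc (−1.46, FDR 1.21e-05), Thbd (−1.09, FDR 0.0464) and Nid1 (−0.82, FDR 0.000849) were lower as well. Nid2 was higher, at 525 and 504 CPM against 368, 342 and 352 CPM (0.54, SE 0.08, FDR 0.000872), and Hspg2, at 386 and 345 CPM, overlapped Control. Lamc1 was at 237 and 225 CPM against 316 to 327 CPM, with a log2 fold change of −0.48 (FDR 0.00156) that stayed within the fold limit. With the duplicates summed into 1 library, 7 of the 8 calls held, and Thbd was lost (FDR 0.162), as it was without Control clone #4 or either duplicate.

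Genes of other lists were lower as well. Of the 16 parietal endoderm markers outside the members, 15 were called lower and 0 higher in the Apex1 EBs, led by Krt8 (82.3 against 905 CPM, log2 −3.46), Krt18 (−3.15) and Krt19 (−2.65). Their summed level was 560 to 634 CPM against 2421 to 3101 CPM in Control, with all 16 detected in both. Of 13 visceral endoderm markers 12 were lower and 0 higher, such as Apoa1 (−2.53) and Cubn (−2.52), and their sum was 171 to 208 CPM against 466 to 1073 CPM. Of the 14 collagen folding and modifying enzymes 3 were lower, led by the collagen chaperone Serpinh1 (112 against 392 CPM, −1.81). The fall was not limited to endoderm lists: the 8 mesenchymal markers summed to 53.3 to 65.3 CPM against 222 to 392 CPM, and the 8 trophoblast markers to 131 to 134 CPM against 243 to 299 CPM. The part of cell composition in the members' values was not tested.

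The change from mESCs to EBs itself also differed between Apex1 and Control, in an interaction test added after the values were seen. In Apex1, 1 member was called higher in EBs than in mESCs, Pth1r (log2 fold change 1.64), and 6 were called lower, Nid1 (−1.84), Lama1 (−1.36), Col4a1 (−0.93), Lamc1 (−0.79), Hspg2 (−0.77) and Col4a2 (−0.51), where 38.7% of 15916 genes were called, 18.4% higher and 20.3% lower. Col4a2 lay at the fold limit, and ran from −0.61 to −0.40 when 1 library was left out. The interaction was called for 7 members, where 26.6% of 16767 genes were. The largest differences were those of Col4a2 (−3.05, SE 0.19, FDR 5.8e-06), Col4a1 (−2.96, SE 0.20, FDR 1.01e-05) and Pth1r (−2.46, SE 0.26, FDR 0.000152). Thbd (−2.16), Lama1 (−1.75), Sparc (−1.67) and Nid1 (−0.65) were the others. The calls of Nid1 and Thbd were lost with the duplicates summed. That of Nid1 was also lost with the block, which for Apex1 is the number of the technical duplicate (FDR 0.132).

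In Neil1, the change from mESCs to EBs was called for 8 members, 6 higher and 2 lower (Nid1 and Hspg2), where 27.9% of 15371 genes were called, 13.1% higher and 14.7% lower. Its interaction with genotype was called for Col4a2 (−0.90, SE 0.22, FDR 0.0277) and Col4a1 (−0.80, SE 0.24, FDR 0.0634), where 10.1% of 16341 genes were called: the collagen genes started higher in Neil1 mESCs and reached 539 to 658 CPM (Col4a1) in EBs against 426 to 510 CPM in Control. Of 12 fits that left out 1 library, Col4a2 was called in 12 and Col4a1 in 5 (−0.95 to −0.61). With the block Lama1 was called too (0.75, FDR 0.0621). In Neil2, 6 members were called higher and 1 lower from mESCs to EBs, where 27.4% of 15554 genes were called, 14.4% higher and 13.1% lower. Calls of 2 members did not hold when 1 library was left out: Lama1 was called in 2 of 6 fits (0.60 to 1.72) and Sparc in 3 of 6 (0.53 to 1.36). Without the low-count filter 3 of the 7 were called, Nid1, Thbd and Pth1r, where 4576 of 24438 genes were. The interaction with genotype in Neil2 was called for 0 of 10 members by edgeR and by DESeq2, with 10.2% of 16387 genes called by edgeR, and 2 members, Nid2 and Hspg2, had an unadjusted p below 0.05.

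**Figure D3:**
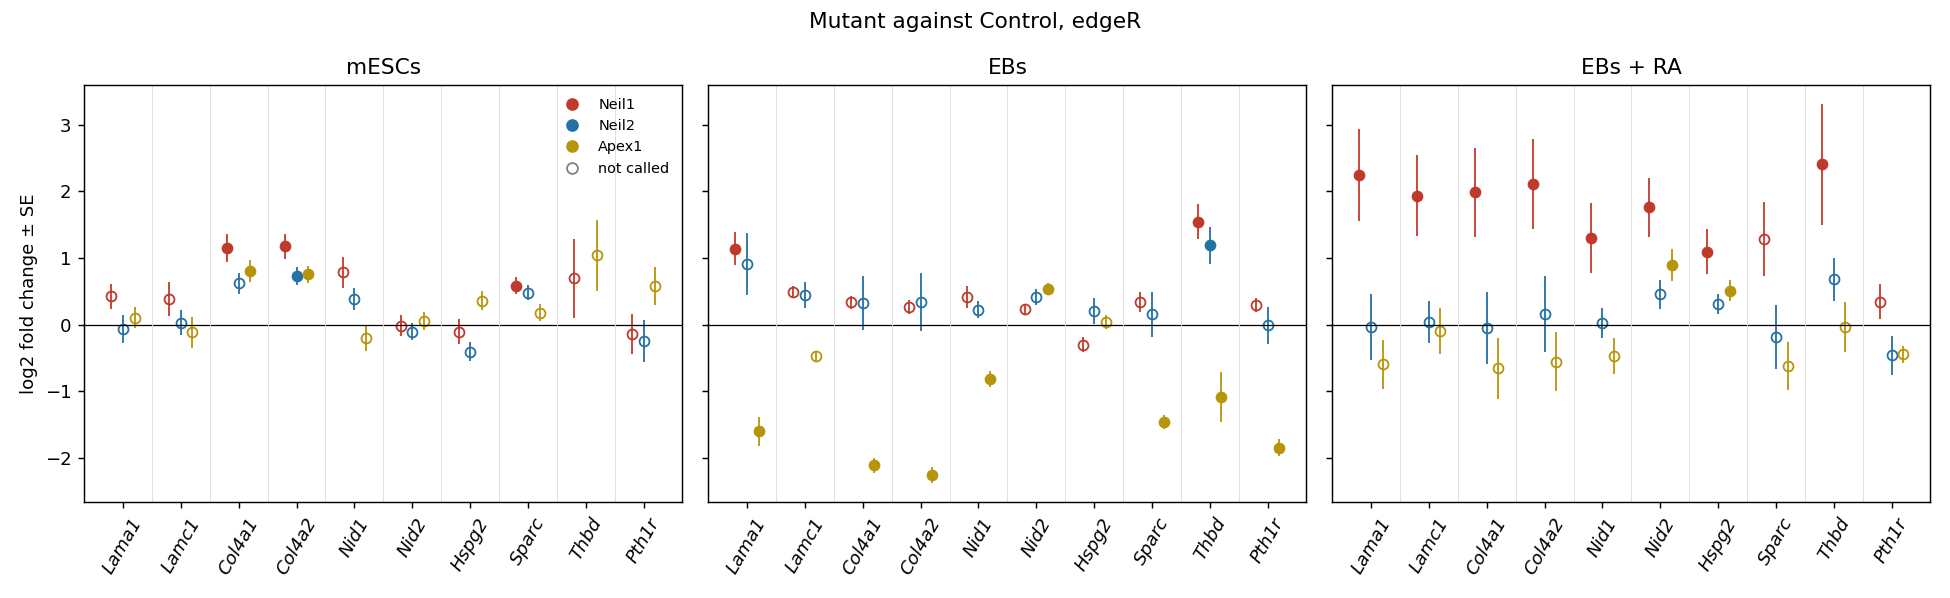
Log2 fold change against Control (± SE from edgeR) for each member in mESCs, EBs and EBs + RA, with 1 colour per mutant; filled points were called and open points were not. Apex1 lies below −1 for 6 members in EBs, and Neil1 above 1 for 9 members in EBs + RA.

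In Neil1 EBs + RA 8 members were called higher than in Control and 0 lower, where 41.1% of 16019 genes were called, 21.2% higher and 19.9% lower. The median log2 fold change was 1.85 over the members and 0.00 over all genes tested.

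Lama1 was at 577, 907 and 3510 CPM in Neil1 against 297, 196 and 562 CPM in Control (log2 fold change 2.25, SE 0.69, FDR 0.0368). Lamc1 was at 580, 696 and 2502 CPM against 292, 187 and 510 CPM (1.94, SE 0.60, FDR 0.0383). Lamb1, the third chain of the same laminin and not a member, was at 613, 787 and 2611 CPM against 277, 175 and 504 CPM (2.07, SE 0.60, FDR 0.0304). The genes of all chains of the trimer were thus above Control in each Neil1 clone, and clone #11 was several times above the other two.

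Col4a1 was at 1460, 2092 and 6916 CPM against 713, 403 and 1536 CPM in Control (log2 fold change 1.98, SE 0.67, FDR 0.0492). Col4a2 was at 813, 1300 and 4228 CPM against 402, 230 and 843 CPM (2.11, SE 0.68, FDR 0.0426). For both collagen genes Neil1 clone #7 lay just below Control clone #7. Nid2 was at 273, 308 and 811 CPM against 134, 93.8 and 184 CPM (1.76, SE 0.44, FDR 0.018), and Hspg2 at 502, 580 and 1266 CPM against 326, 336 and 440 CPM (1.10, SE 0.34, FDR 0.0356). In these genes there was no overlap.

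Nid1 was at 187, 146 and 600 CPM against 123, 85.7 and 171 CPM (log2 fold change 1.30, SE 0.52, FDR 0.0846). Thbd was at 1.36, 1.46 and 13.6 CPM against 0.991, 0.716 and 1.36 CPM (2.41, SE 0.91, FDR 0.0699), with clone #11 far above the rest. Sparc (1.28, FDR 0.104) and Pth1r (0.34, FDR 0.33) were not called: Sparc was at 1523, 2045 and 5986 CPM against 1107, 748 and 2087 CPM.

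The library of Neil1 clone #11 in EBs + RA stood apart from the 10 others of its stage. Against the mean of the other Neil1 clones it was 4.73-fold higher in Lama1, 3.92-fold in Lamc1, 3.89-fold in Col4a1, 4.00-fold in Col4a2, 9.63-fold in Thbd and 1.93-fold in Pth1r. Other lists moved with it. The summed level of the 16 parietal endoderm markers outside the members was 9879 CPM, against 2071 to 4301 CPM in the others, that of the 14 collagen folding and modifying enzymes 8221 CPM, and that of the 8 endothelial markers 258 CPM against 58.7 to 90.7 CPM. Cdh5 made up 107 CPM of this endothelial sum, against 3.47 to 12.7 CPM in the others. Over the 3 clones, 3 of the 8 endothelial markers were called higher and 3 lower (Emcn, Kdr and Tie1). The visceral endoderm sum was 1021 to 1779 CPM in Neil1 and 201 to 825 CPM in Control, with 8 of 13 called higher and 0 lower. The part of these cell types in the members' values was not tested.

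Without that library, 5 members were called higher: Col4a2 (log2 fold change 1.11, FDR 0.0909), Nid2 (1.09, FDR 0.0114), Lama1 (1.08, FDR 0.0608), Lamc1 (0.96, FDR 0.0621) and Hspg2 (0.57, FDR 0.0318). Col4a1 was at 1.01 (FDR 0.117), Nid1 at 0.40 (FDR 0.258), Thbd at 0.47 (FDR 0.338) and Sparc at 0.45 (FDR 0.369). Without Control clone #1 or #4 in EBs + RA, Nid2 was the 1 member called, at 1.74 (FDR 0.0798) and 1.54 (FDR 0.0706).

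Other genes of the matrix did not all follow. Of 9 other laminin chains 5 were called higher and 1 lower in Neil1 EBs + RA, with Lamb1 and Lama3 (log2 fold change 1.65) among the higher. Of 14 collagen folding and modifying enzymes 8 were higher and 1 lower, with the prolyl hydroxylase P4ha2 (1.78) and the lysyl hydroxylase Plod3 (1.24) among the higher. Of the 4 other type IV, XV and XVIII collagens tested, 0 were higher and 3 lower: Col4a6 (−3.21), Col4a5 (−2.34) and Col15a1 (−1.88). Of the 15 other basement membrane proteins 4 were higher and 6 lower, the largest changes being those of Frem1 (−5.07) and Fras1 (−2.76), of the Fraser complex, and Smoc2 (−2.59). Of 11 laminin and collagen receptors 5 were higher and 0 lower, such as Itga7 (2.20), the alpha subunit of a laminin receptor. Outside the members, 9 of 16 parietal endoderm markers were higher, led by Lamb1 and Tfpi (2.07), and 1 was lower, Vim (−3.59), which neural and mesenchymal cells also express.

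**Figure D4:**
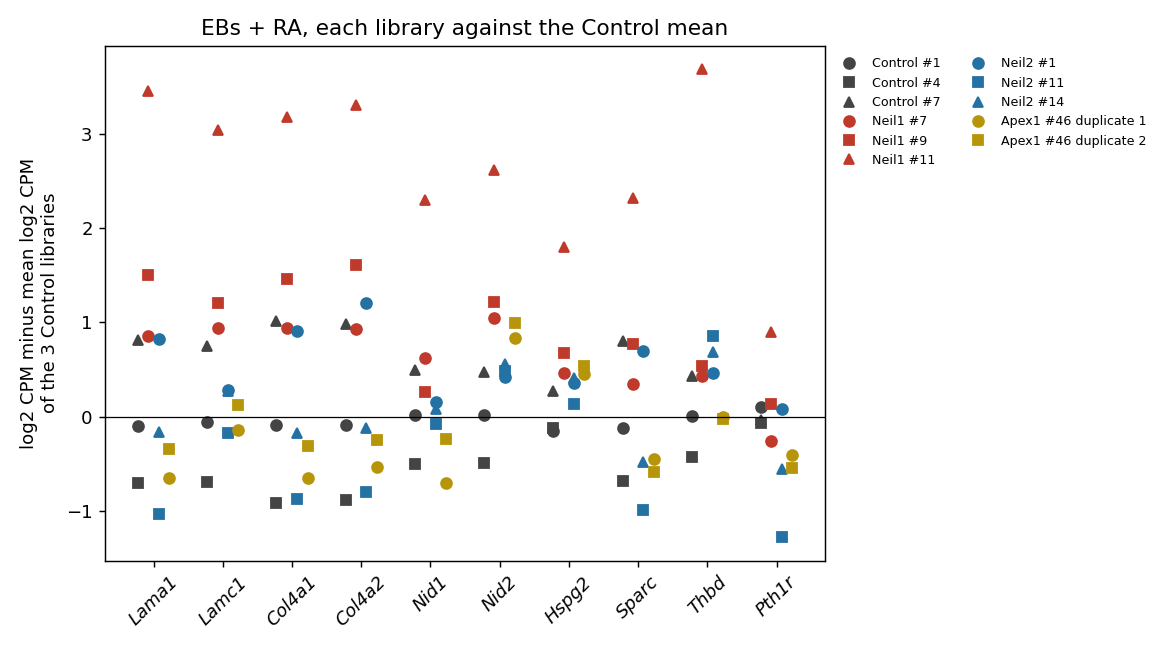
Log2 CPM of each EBs + RA library minus the mean log2 CPM of the 3 Control libraries, for each member; colours give the genotype and marker shapes the clone. Neil1 clone #11 (red triangles) is the highest point for every member, and Control clone #7 (dark triangles) is above the other Control clones for all members but Pth1r.

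In Neil2 EBs + RA, 0 of 10 members were called by edgeR, where 34.9% of 16055 genes were, 18.3% higher and 16.6% lower. Of the members, 0 were called by DESeq2, and 0 had an unadjusted p below 0.05. With the replicate number as a block 2 were called, Nid2 (log2 fold change 0.50, FDR 0.0809) and Pth1r (−0.57, FDR 0.093), where 5344 of 16055 genes were. Col4a1 was at 1429, 414 and 675 CPM in Neil2 against 713, 403 and 1536 CPM in Control, with all Neil2 clones within the Control range. With SEs of 0.49 to 0.57, the log2 fold changes of Lama1 (−0.04), Col4a1 (−0.05) and Col4a2 (0.16) do not show that these genes were alike in Neil2 and Control. In the libraries labelled Apex1, Nid2 (0.89, SE 0.24, FDR 0.0342) and Hspg2 (0.51, SE 0.16, FDR 0.056) were called higher and 0 members lower, where 24.8% of 16239 genes were called, 13.9% higher and 10.9% lower. Both calls were lost with the duplicates summed (FDR 0.177 and 0.223). Col4a1 was at 483 and 613 CPM and Sparc at 878 and 799 CPM in Apex1, within the range of Control, where in EBs all Apex1 values of both genes had been below Control.

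The mutants were also compared with each other. Between Neil1 and Neil2, edgeR called 0 members at each stage and 0.0% of all genes. At an unadjusted p below 0.05 there were 2 members in mESCs, 1 in EBs and 8 in EBs + RA, and 915, 735 and 1608 of all genes. DESeq2 called Nid2 in EBs + RA (log2 fold change 1.35, FDR 0.0708). Where Neil1 lay above Neil2 without overlap in EBs + RA, the lowest Neil1 and the highest Neil2 value could lie close, as in Lama1 with 577 and 567 CPM. Apex1 was below Neil1 and Neil2 together in EBs for 8 of 10 members, with 0 higher, where 18.0% of 15981 genes were called, 8.57% higher and 9.48% lower. Lama1 (−2.64), Col4a2 (−2.57), Thbd (−2.47), Col4a1 (−2.45) and Pth1r (−2.00) differed most, and Nid2 and Hspg2 were not called. With the duplicates summed, the calls of Sparc and Lamc1 were lost (FDR 0.117 for both). In EBs + RA 0 members were called in this comparison, where 23.7% of 16634 genes were, 0 had an unadjusted p below 0.05, and the SEs reached 1.13.

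The order of the clones was compared between EBs and EBs + RA, cultures that had been split on day 4. The clone with the highest EB value was also the highest in EBs + RA for 6 of 10 members in Control, 6 in Neil1 and 7 in Neil2, and the lowest was the same for 7, 6 and 8. These counts are descriptions, since members vary together and with so few clones some matches arise by chance. The share over all genes is not reported here. Neil2 clone #1 was the highest and clone #11 the lowest in Lama1, Lamc1, Col4a1, Col4a2, Sparc and Pth1r under both conditions. In Neil1, clone #11 was the highest under both conditions in Lama1, Lamc1, Col4a1, Col4a2, Nid1 and Sparc.

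Members varied together between libraries of the same group. After each group's mean was taken off, the 45 pairs of members had Pearson correlations of log2 CPM from 0.29 to 0.99 over the 33 libraries, with a median of 0.72, and the highest was that of Col4a1 with Col4a2. Without that step they ran from −0.55 to 0.99, lowest for Nid2 with Pth1r. These are descriptions, since libraries of a clone and of a stage are not independent and share depth and scaling.

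Ratios between partner genes differed by stage. Per kilobase of exon, Col4a1 exceeded Col4a2 2.10 to 2.93 times in the 11 mESC libraries, 1.76 to 2.04 times in the 11 EB libraries and, after RA, 1.41 to 1.77 times in 11 libraries, so that mESCs did not overlap EBs in any genotype. The ratio of Nid2 to Nid1 per kilobase ranged over 2.10 to 3.11 in Control mESCs, 3.65 to 5.04 in Control EBs and, with RA, 1.33 to 1.35. It was 10.4 and 12.0 in the EB libraries labelled Apex1, where Nid1 was lower and Nid2 higher than in Control. The ratio of Lamc1 to Lama1 was 3.95 to 5.46 in Control mESCs. It ranged from 2.13 to 3.32 in Control EBs and from 1.04 to 1.13 in Control EBs + RA, and was 5.65 and 6.39 in Apex1 EBs. Lengths are those of all annotated exons of a gene, so that such ratios depend on the isoforms present.

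**Figure D5:**
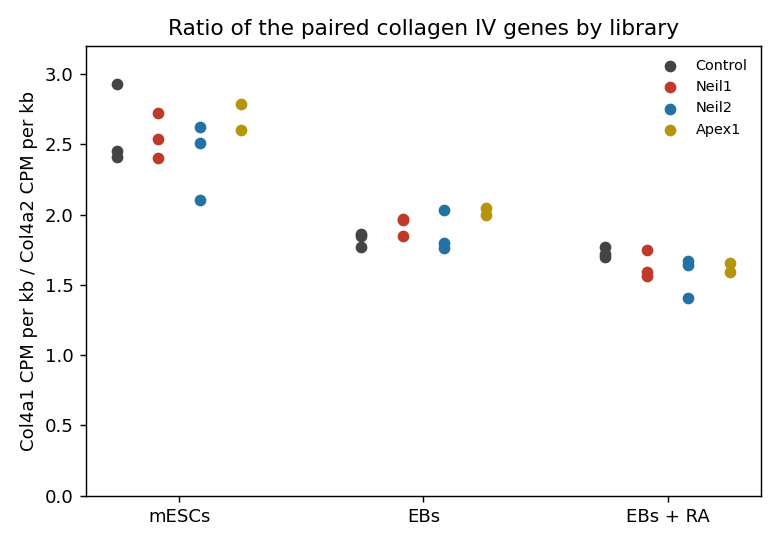
Ratio of Col4a1 to Col4a2 (CPM per kilobase of exon) in each of the 33 libraries by stage, on a linear axis from 0, with colours for the genotype. The mESC libraries lie at 2.10 to 2.93 and all EB and EB + RA libraries lie lower.

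Genes with the most similar pattern were sought among the 14185 genes that averaged 1 CPM or more, by Pearson correlation of log2 CPM over the 33 libraries. Pth1r was closest to Ihh (0.978), Fgb (0.974) and Foxa2 (0.972), of which Ihh, a hedgehog ligand, is on the visceral endoderm list. Col4a1 was closest to Slco2a1 (0.951), Atp6v0a1 (0.944) and Nrg1 (0.941), and Col4a2 to Slco2a1 (0.969), Hs3st1 (0.961) and Srgn (0.956). Sparc was closest to Creb3l2 (0.957), Atp6v0a1 (0.955) and Crim1 (0.950), and Lama1 to Atp6v0a1 (0.933), Nrg1 (0.929) and Plod3 (0.921), a lysyl hydroxylase of collagen. Lamc1 was closest to Epas1 (0.882), Nid1 to Myom3 (0.900), Nid2 to the laminin receptor subunit Itga6 (0.892), Hspg2 to Arhgap23 (0.854) and Thbd to Chdh (0.861). Atp6v0a1 thus appeared among the 3 closest genes of 3 members, Col4a1, Sparc and Lama1.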

How the data were processed

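RNA of 33 libraries was sequenced by the authors as TruSeq libraries for 51 cycles, aligned with TopHat2 version 2.0.9 to NCBIM37 and counted per gene with HTSeq version 0.5.4. The deposited values are these raw counts per Ensembl gene, without normalization. Whether counting used strand was not given in the sources used here. Reads from the overlap of Col4a1 and Col4a2, and of Nid2 with 2700060E02Rik, may be left out of or divided between both genes.

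Names and coordinates came from the NCBIM37 annotation, which named 37205 of the 37991 identifiers. Counts were filtered with filterByExpr, scaled by TMM and tested with edgeR version 4.0.16 (limma version 3.58.1, R version 4.3.3) by the robust quasi-likelihood test. Each comparison fitted only its own groups, p-values were adjusted over all genes tested, and the limits for a call were those of the study (FDR 0.1, log2 fold change 0.5). CPM were scaled over all libraries; log2 CPM for correlations used a prior count of 2. Tables and plots were made with Python version 3.11.15, pandas version 2.3.3 and matplotlib version 3.10.9.

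Interactions of genotype with the step from mESCs to EBs were added after seeing the data. The members, gene lists and comparisons were chosen with earlier results of these data known. All members were tested in every comparison (all but Thbd for Neil2 against Control in mESCs) and were to be named in each; the text gives those called in full and the others in part. From other lists at most the 3 called genes with the largest change per comparison described, except markers named as counts; for each member the 3 genes with the highest correlation. Some genes of these lists are not reported here.

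Same-numbered EB and EB + RA libraries came from the same clone, with EBs divided on day 4, and their deviations from the group means were correlated in all 11 pairs (0.17 to 0.48). Pairs of a genotype are not independent, since deviations from a group mean cancel out. The Apex1 pairs hold 1 value, 0.36, because the deviations of 2 libraries mirror each other. Same-numbered mESC and EB libraries share only the clone (−0.47 to 0.20).

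Alternatives were DESeq2 version 1.42.0, edgeR with RLE scaling, testing without the low-count filter, the replicate block, leaving out each library, and summing the Apex1 duplicates. Tests were also run on simulated data with changes of 2-fold and 4-fold. For Neil1 against Control in EBs + RA these were recovered in 55 and 97 of 100 genes, with 29 false calls among 15784 genes. As a share of the calls made, these false calls exceeded the FDR limit of 0.1. For the Neil1 interaction with RA, 40 and 90 of 100 were recovered, with 13 false calls among 16365 genes, a share below that limit. The share was above the limit for Control EBs + RA against EBs (85 and 97 recovered, 33 false calls). It was also above the limit for Apex1 against Control in EBs + RA (80 and 99 recovered, 23 false calls). Each simulation changed 200 genes, while in the data 41.1% of 16019 genes were called for Neil1 against Control in EBs + RA. The share of false calls depends on the number of genes changed, so these shares do not measure the error of the calls above. In each of the 30 pairs of libraries within a group, the counts differed beyond sampling noise.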

Additional observations from a re-analysis of the deposited data

Results flagged for a closer look

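The response to RA differed between mutant and Control, by the interaction term of edgeR, in these members. In Neil1 the difference on the log2 scale was 1.88 for Col4a2, 1.56 for Nid2 and 1.42 for Hspg2, which were called in 3, 10 and 12 of 12 fits that left out 1 library. In the libraries labelled Apex1 it was 1.38 for Pth1r, called in 10 of 10. Of all genes tested, 29.6% of 16706 were called for Neil1 and 15.7% of 16848 for Apex1. These shares are near the 3 of 10 members in Neil1 and above the 1 of 10 in Apex1. The tests did not pair the EB and EB + RA libraries of a clone. With the clone as a replicate block, Lamc1 and Col4a1 were called too in Neil1, and Lama1 in Neil2. The block called 5734 of 16706 genes in Neil1 and 3734 of 16757 in Neil2. In Apex1 the block, there the number of the technical duplicate, added Lama1, Col4a1 and Col4a2, where 3581 of 16848 genes were called.

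The change from mESCs to EBs differed from that of Control, in a test added after seeing the data. Of all genes tested, 10.1% of 16341 were called in Neil1 and 26.6% of 16767 in Apex1. In Neil1 the difference was −0.80 for Col4a1 and −0.90 for Col4a2, called in 5 and 12 of 12 such fits. In Apex1 it was −3.05 for Col4a2, −2.96 for Col4a1, −2.46 for Pth1r, −2.16 for Thbd, −1.75 for Lama1, −1.67 for Sparc and −0.65 for Nid1. Of 10 such fits, Thbd was called in 7, Nid1 in 2 and the others in 10. Parietal endoderm markers outside the members were also lower in the Apex1 EBs, 15 of 16, as were mesenchymal and trophoblast markers, 5 and 4 of 7, and the part of cell composition in these differences was not tested.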

How the results depend on the processing

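Of the members' fold changes called, 93 of 97 kept direction and call with DESeq2, 96 with RLE scaling, 77 without the low-count filter and 93 with the replicate block. With the Apex1 duplicates summed 19 of 28 did, and of 620 fits that left out 1 library 512 did. Without the low-count filter, 3 members instead of 7 were called for Neil2 EBs against mESCs, 2 instead of 4 for RA in Control, 1 instead of 3 for RA in Neil2, 2 instead of 8 for Neil1 and 1 instead of 2 for Apex1 against Control in EBs + RA, 2 instead of 1 for Neil2 against Control in mESCs and 1 instead of 3 for the Neil1 interaction with RA. Over all genes, Neil2 EBs against mESCs gave 4576 of 24438 instead of 4263 of 15554. RA gave 7736 of 24561 instead of 7019 of 15919 in Control and 7082 of 24641 instead of 6732 of 15876 in Neil2. Against Control in EBs + RA, Neil1 gave 6734 of 24572 instead of 6580 of 16019. Apex1 gave 4292 of 23835 instead of 4026 of 16239 there. Neil2 against Control in mESCs gave 479 of 24549 instead of 286 of 15615. The Neil1 interaction gave 4467 of 26073 instead of 4946 of 16706. With DESeq2, 2 members were called for Neil2 against Control in mESCs and 1 for Neil1 against Neil2 in EBs + RA, where 819 of 15030 and 111 of 15156 genes were. With the Apex1 duplicates summed, 0 were called against Control in mESCs and in EBs + RA.

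With the replicate block, 6 members were called for RA in Neil2, 5, 1 and 4 for the interactions of Neil1, Neil2 and Apex1 with RA, and against Control 0 for Neil1 and 2 for Neil2 in mESCs and 2 for Neil2 in EBs + RA. Over all genes the block called 7498 of 15876 for RA in Neil2. For the interactions it called 5734 of 16706, 3734 of 16757 and 3581 of 16848. In mESCs it called 0 of 15569 for Neil1 and 634 of 15615 for Neil2 against Control, and in EBs + RA 5344 of 16055 for Neil2. Against Control the replicate numbers do not pair the samples (24 pairs, correlations −0.44 to 0.56, 8 above 0.1). The block turned uncalled log2 fold changes of Thbd for RA in Neil1 to −0.21 and, for Apex1 against Control in EBs + RA, of Col4a1 to 0.050 and Col4a2 to 0.13.

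When 1 library was left out, 3 to 7 members were called for RA in Control and 1 to 4 in Neil2. The shares of all genes called in such fits are not reported here. Against Control in mESCs, the range was 0 to 4 for Neil1 and for Neil2 and 0 to 3 for Apex1. In EBs it was 2 to 4 (Neil1) or 0 to 3 (Neil2). With RA it was 1 to 10 (Neil1), 0 to 2 (Neil2) or 0 to 4 (Apex1). For the interactions with RA it was 1 to 5 in Neil1 and 1 to 9 in Apex1, for those with stage 1 to 2 in Neil1, 0 to 3 in Neil2 and 5 to 8 in Apex1, and for Apex1 against Neil1 and Neil2 5 to 8 without RA and 0 to 1 with it. The log2 fold changes that changed sign, none called with all libraries, were Thbd for RA in Neil1 (−1.36 to 1.06), Col4a2 for RA in Neil2 (−0.0070 to 1.47), the Neil1 interactions with RA of Lama1 (−0.042 to 1.64) and Thbd (−1.06 to 1.35), Thbd between Neil1 and Neil2 after RA (−0.18 to 2.23), and, for Apex1 against Control after RA, Col4a1 (−1.01 to 0.0045) and Col4a2 (−0.90 to 0.082). The cause of these changes was not tested. Over all genes, Neil1 against Control in mESCs gave 283 calls, 1044 with DESeq2, 503 without the filter and 0 with the block, Neil2 gave 286, 819, 479 and 634, and Apex1 gave 2751, 6140 with the block and 0 with duplicates summed. With duplicates summed, Apex1 against Control in EBs + RA gave 1400 calls instead of 4026, its interaction with RA 662 instead of 2646, and Apex1 against Neil1 and Neil2 841 instead of 2884 in EBs and 949 instead of 3937 in EBs + RA (2468 with the block).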

Other observations

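Markers of other cell types also differed between Neil1 and Control EBs + RA. All 7 neural markers tested were called lower and 0 higher, 6 of 7 mesenchymal markers were lower and 0 higher, and 6 of 8 trophoblast markers were higher and 0 lower. Of 8 pluripotency markers 7 were higher and 1 was lower. In the EB libraries labelled Apex1, 5 of 7 mesenchymal and 4 of 7 trophoblast markers were lower than in Control, with 0 of either higher, and 5 of 8 pluripotency markers were higher and 0 lower.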
